A study of Mus musculus with 4 samples.

Results

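The genes described here are the 3 Runx transcription factor genes (Runx1, Runx2, Runx3), their shared partner gene Cbfb, and the 3 genes of the ETO corepressor family (Runx1t1, Cbfa2t2, Cbfa2t3), 7 of 27095 gene windows in the deposited table. They were taken by family name, and all 7 passed the filter on low counts, as did 16752 genes in all. The family was selected on the measured genotype contrast, in which Cbfa2t3 is among the largest gains, so every genotype difference given for the 7 genes is a description and carries no test. H3K27me3, the histone mark laid down by Polycomb repressive complex 2 (PRC2), was profiled by Cut&Tag, in which an antibody directs a transposase to cut and tag the chromatin around the mark. The cells were alveolar macrophages, the phagocytes of the lung airspaces, sorted from C57BL/6-Ly5.1 recipients that had been lethally irradiated and given marrow. That marrow was 90% Ly5.2 and 10% wild-type Ly5.1 in both groups. The Ly5.2 share was wild type in one group (2 libraries) and Suz12 cKO in the other (2 libraries), where Suz12 is a core subunit that PRC2 needs. The Cre driver of the conditional knockout, the age of the mice and whether the sort left out Ly5.1 cells were not given in the sources used here.

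Runx proteins bind DNA through the Runt domain, and Cbfb, which does not bind DNA itself, joins them and strengthens that binding. Runx1 is needed for blood stem cells to form, Runx2 for bone, and Runx3 for the CD8 T cell lineage and some sensory neurons. Each Runx gene has a distal promoter and a proximal one, of which the proximal one lies in a CG-rich stretch. The ETO proteins bind no DNA on their own and bring NCoR, SMRT and histone deacetylases to transcription factors. Runx1t1 encodes ETO, the part fused to RUNX1 in a common acute myeloid leukaemia, and Cbfa2t3 encodes ETO2, a corepressor in Tal1 complexes of blood progenitors.

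The distal starts of the Runx genes share a paired binding motif of the family itself, shown because it marks these promoters off from nearly all others. The motif AACCACA was searched on both strands of the 300 bases around each start (RefSeq, GRCm38.p6, 250 before and 50 after), and 5.27% of 32851 promoters held it. The pair AACCACA, any 1 base and AACCACA, which contains the single motif at either end, was in 5 promoters (0.0152%). These belonged to Runx1, Runx2, Runx3, Gm16225 and Olfr24. A match describes the letters only. The sites with flanks are given 5′ to 3′ on the gene's strand, the motifs in capitals, at chr16:92826027-92826054 (minus strand), chr17:44814585-44814612 (minus strand) and chr4:135120503-135120530 (plus strand).
Runx1 distal: cataaacAACCACAgAACCACAagttgg
Runx2: cacaaacAACCACAgAACCACAagtgcg
Runx3 distal: gtccctcAACCACAgAACCACAaggcca
The first base of the pair lies at position 28 of the Runx1 transcript and position 23 of the Runx2 transcript, and 135 bases before the Runx3 start. The H3K27me3 counts are for whole gene windows and do not resolve these sites.

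CG-rich promoters are the usual landing places of PRC2, and the members with a listed start span nearly the whole range of CG content. In the 250 bases before the start, the median of all promoters was 6 CG dinucleotides. The counts were 0 for Runx2, 2 for Runx1 distal, 8 for Runx3 distal and 9 for Cbfa2t3 distal. They were 25 for Cbfb, 27 for Runx1 proximal, 38 for Runx3 proximal, 41 for Cbfa2t2 and 43 for Cbfa2t3 proximal, which stands at percentile 99.4 of all promoters. The reference lists 1 start each for Runx2 (not the proximal one), Cbfb and Cbfa2t2. It lists none for Runx1t1, whose CG content was not read. The 3 most CG-rich starts and, for contrast, the distal start of Cbfa2t3 are printed with each CG in capitals, since the 3 genes behind them had very different levels of the mark (below). They lie at chr4:135152295-135152544 (plus), chr8:122678176-122678425 (minus), chr8:122699110-122699359 (minus) and chr2:154436234-154436483 (plus).
Runx3 proximal: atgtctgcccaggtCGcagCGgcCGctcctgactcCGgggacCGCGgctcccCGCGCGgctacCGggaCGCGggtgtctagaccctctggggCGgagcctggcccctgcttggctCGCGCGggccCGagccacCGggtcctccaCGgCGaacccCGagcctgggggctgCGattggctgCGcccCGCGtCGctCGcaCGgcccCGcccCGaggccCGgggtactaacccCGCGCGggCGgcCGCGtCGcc
Cbfa2t3 proximal: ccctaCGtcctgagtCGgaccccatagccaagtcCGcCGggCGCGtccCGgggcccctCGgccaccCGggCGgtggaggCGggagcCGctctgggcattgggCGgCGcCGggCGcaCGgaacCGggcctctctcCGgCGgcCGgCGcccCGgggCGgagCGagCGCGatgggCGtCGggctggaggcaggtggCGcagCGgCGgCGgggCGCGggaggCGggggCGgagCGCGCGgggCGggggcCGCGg
Cbfa2t3 distal: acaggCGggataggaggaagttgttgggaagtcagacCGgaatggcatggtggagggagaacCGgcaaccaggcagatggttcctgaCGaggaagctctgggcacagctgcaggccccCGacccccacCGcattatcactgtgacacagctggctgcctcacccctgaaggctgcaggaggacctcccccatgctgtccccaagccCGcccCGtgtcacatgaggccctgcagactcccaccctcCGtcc
Cbfa2t2: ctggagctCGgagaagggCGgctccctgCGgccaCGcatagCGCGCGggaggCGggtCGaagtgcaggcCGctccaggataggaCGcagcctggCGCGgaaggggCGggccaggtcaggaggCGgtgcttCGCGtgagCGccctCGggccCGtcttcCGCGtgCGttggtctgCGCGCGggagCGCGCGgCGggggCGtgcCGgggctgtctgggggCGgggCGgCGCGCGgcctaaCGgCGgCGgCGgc

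**Figure D1:**
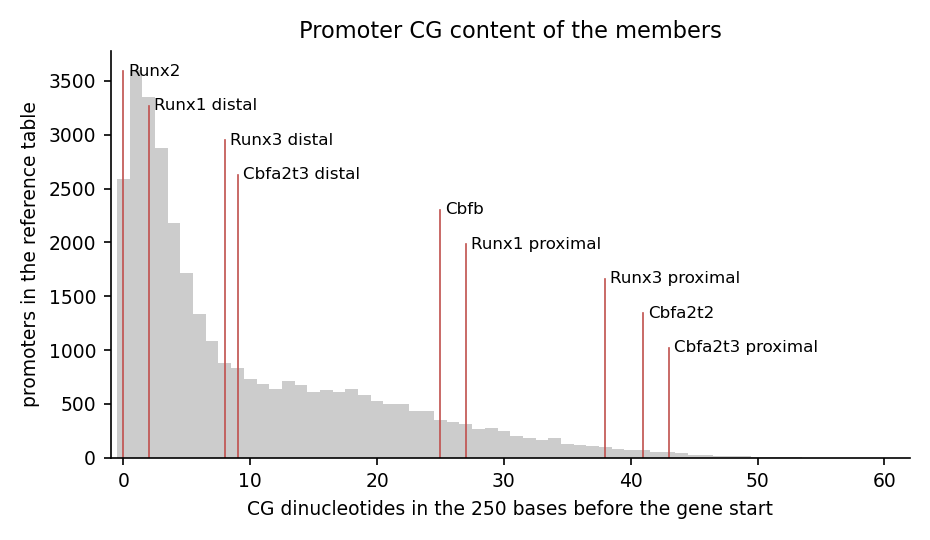
Grey bars count the 32851 promoters of the reference table by the number of CG dinucleotides in the 250 bases before the start. Red lines mark the listed member promoters, of which Runx1t1 has none. The listed promoters run from 0 (Runx2) to 43 (Cbfa2t3 proximal), against a median of 6.

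Total counts over gene windows ran from 2142175 to 3567282 per library, 1.46 times higher on average in cKO. Counts were scaled to a common library total with TMM factors, which gives CPM, and levels of different genes are compared only as CPM per kb of window. Because CPM are relative, a shift common to every gene would leave them as they are. The window of Suz12 itself held 8 and 10 counts in wild type and 11 and 10 in cKO, below the filter, and does not check the deletion because the deleted part is not given. The windows of 16 alveolar macrophage marker genes, such as Siglecf, Marco and Pparg, were lightly marked, with no wild-type mean above 0.528 CPM per kb. Of the 9 tested, 0 were called (edgeR; 1 at an unadjusted p below 0.05 and 0 by DESeq2, which gave no adjusted p for 7). Their median log2 fold change was 0.59, beside −0.01 for all tested genes, with 7 of 9 positive. In 5 of the 9 both cKO libraries were above both wild-type libraries, beside 23.8% of all tested genes. In 2 both were below, and 47.6% of all tested genes had no overlap in either direction. Marker lists of T cells, B cells, lung epithelium, endothelium and neutrophils had wild-type medians of 0.758 to 1.70 CPM per kb over tested genes. The 9 tested macrophage markers had a median of 0.152, and some genes of the other lists, such as Pecam1 (0.125), lay below 0.528. By edgeR 0 of the 22 tested genes of the other lists were called between genotypes (0 at an unadjusted p below 0.05). DESeq2 called 0 and gave no adjusted p for 6. Among all tested genes 6.42% were called, so 0 calls in lists of 9 and 22 genes say little. The mark is not a measure of expression, and in sorted bulk cells a mark in some cells cannot be told apart from a weaker mark in all.

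In wild-type macrophages 1 member stood far above the others. Runx3 had 13.8 ± 1.60 CPM per kb (SD, n = 2 here and below), at percentile 99.1 of all tested genes. Runx1t1 followed at 0.904 ± 0.0158, above the median of 0.664 over all tested genes, and the other 5 members lay below that median. Runx1 had 0.489 ± 0.0420 and Cbfa2t3 0.427 ± 0.0281, a ratio of 1.14 with no overlap between their libraries. Divided by the part of its window not shared with Pabpn1l, Cbfa2t3 averaged 0.447, so their order is not firm. The lowest were Runx2 at 0.128 ± 0.00940, Cbfb at 0.0938 ± 0.0606 and Cbfa2t2 at 0.0880 ± 0.00492. The library values of Runx2 and Cbfb overlapped, as did those of Cbfb and Cbfa2t2, so their order is not set. Runx3 stood 15.3 times above Runx1t1. Among the 3 genes with the most CG-rich listed promoters, the wild-type level thus ran from percentile 4.02 (Cbfa2t2) through 39.6 (Cbfa2t3) to 99.1 (Runx3). These levels are means over windows of 108873, 79974 and 63346 bp, not levels at the promoters. A mark near the start weighs less in a longer window, and the part of window length was not tested.

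In Suz12 cKO the order of the 4 most marked members differed. By mean level, Cbfa2t3 stood at the second level instead of the fourth, ahead of Runx1t1 and Runx1. It had 2.06 ± 0.00372 CPM per kb, at percentile 80.8, which is 2.61 times Runx1t1. Runx3 remained highest at 16.0 ± 0.687 CPM per kb, and Runx2, Cbfa2t2 and Cbfb were again lowest, with overlapping libraries. Of the 7 members, 1 was called between genotypes (edgeR's quasi-likelihood test, adjusted p below 0.05 over all tested genes), as a gain in cKO, against 6.42% of all tested genes called, 4.46% called as gained and 1.96% as lost. Since the family was picked with this contrast known, nothing is read from that count. The genotypes did not overlap in CPM for 4 of 7 members, against 47.6% of all tested genes, and 3 of the 4 were higher in cKO, against 23.8%. The median log2 fold change of the members was 0.12, beside −0.01 for all tested genes.

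**Figure D2:**
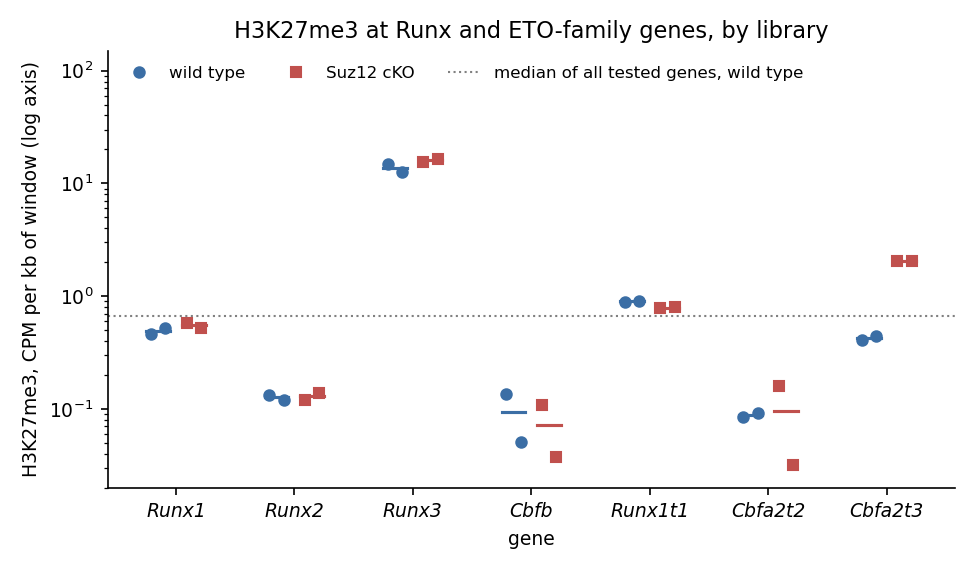
H3K27me3 in CPM per kb of window (log axis) for each member, with 1 point per library (circles wild type, squares Suz12 cKO), bars at the mean of 2 libraries, and a dotted line at the wild-type median of all tested genes. Runx3 stands highest in both genotypes, and Cbfa2t3 is below the line in wild type and above it in cKO.

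Cbfa2t3, the ETO2 corepressor gene on chromosome 8 (122625136 to 122699332, minus strand), was covered by 85 and 79 counts in wild type against 544 and 571 in cKO. In CPM these were 32.6 and 35.8 in wild type and 164 and 165 in cKO. Both cKO libraries were high, both wild-type libraries low, and the replicates of each genotype lay close together: the cKO libraries differed by a factor of 1.00 and the wild-type libraries by 1.10. The means were 34.2 ± 2.24 and 165 ± 0.297 CPM. The log2 fold change was 2.27 ± 0.14 (SE), the 23rd highest of 16752 tested genes. It lay between 2.19 and 2.51 over the 12 alternative analyses. These reuse the same 4 libraries in which the family was picked, so their range describes the processing only. The window of Pabpn1l overlaps 4.49% of the Cbfa2t3 window. The 2 starts of the gene, the distal one with 9 CG and the proximal one with 43 CG printed above, both lie inside its single window.

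The other ETO genes were not called between genotypes, and the difference between their contrast and that of Cbfa2t3 was not tested. Runx1t1 (chromosome 4, 13742628 to 13895056) had 140 and 143 CPM in wild type and 122 and 124 in cKO. Both cKO libraries were slightly below both wild-type libraries, and the log2 fold change was −0.20 ± 0.11, not called, and 0.05 when the libraries were scaled to housekeeping genes. Cbfa2t2 (chromosome 2, 154436098 to 154539356), which encodes a corepressor needed with Prdm14 in germ cells, had 9.20 and 9.96 CPM in wild type. In cKO it had 17.5 CPM in the first library and 3.47 in the second, from 58 and 12 counts. The cKO libraries thus lay on either side of wild type, and the factor of 5.06 between them was larger than the replicate gap of 99.7% of all tested genes. The log2 fold change of 0.12 ± 0.36 rests on that average, and it was −1.45 without the first cKO library and 0.88 without the second.

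**Figure D3:**
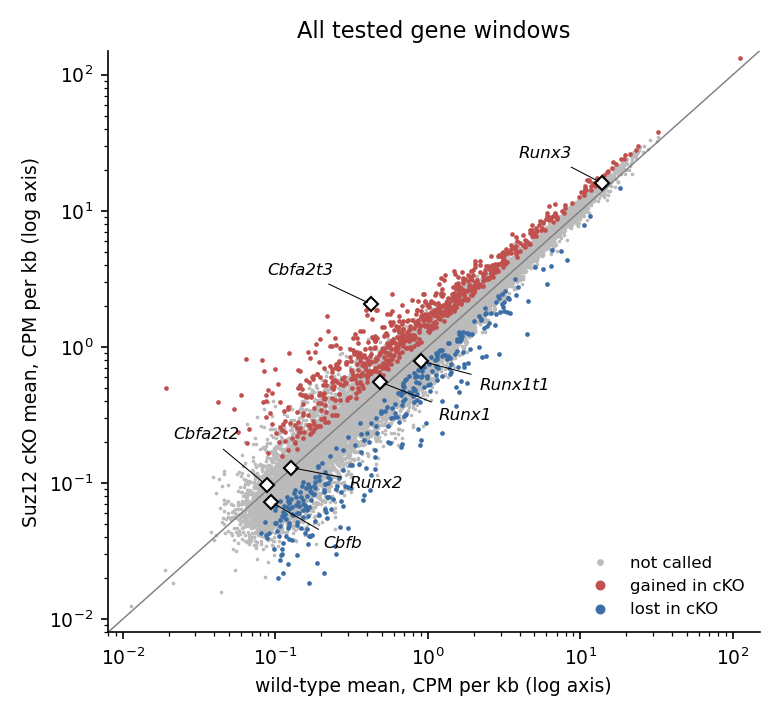
Mean CPM per kb in wild type (x) against Suz12 cKO (y), both log axes, for 16752 tested genes: grey not called, red gained, blue lost, diamonds the 7 members. Cbfa2t3 lies far above the line of equal level, and the other 6 members lie near it.

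None of the 3 Runx genes was called with all 4 libraries. Runx3, on chromosome 4 (135120645 to 135177990), had 947 and 804 CPM in wild type and 983 and 1045 in cKO. Both cKO libraries were above both wild-type libraries, and the log2 fold change of 0.21 ± 0.08 is a ratio of 1.16, beside 1.18 between the 2 wild-type libraries. The log2 fold change was 0.35 without wild-type library 1, the wild-type library nearer to cKO, and 0.11 without wild-type library 2. Runx1, on chromosome 16 (92601466 to 92826074), had 106 and 120 CPM in wild type and 133 and 122 in cKO. Its cKO libraries were also both higher, by a small margin, with a log2 fold change of 0.18 ± 0.12. It was not called in any alternative.

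Runx2, on chromosome 17, had 29.1 and 26.3 CPM in wild type and 26.0 and 30.3 in cKO, so the genotypes overlapped (log2 fold change 0.02 ± 0.21). Its sign was negative in 5 of 12 alternatives. The deposited Runx2 window of 216797 bp is shorter than the reference gene of 318811 bp (44495987 to 44814797), so it follows another gene model, and whether it reaches the distal start was not determined. By reference positions 13.4% of that region is shared with Supt3. Cbfb, on chromosome 8 (105170674 to 105217989), had 7.28 and 2.72 CPM in wild type and 5.74 and 2.02 in cKO, from 19, 6, 19 and 7 counts. The first library of each genotype was the higher one, the genotypes overlapped, and at this depth no difference was detectable (log2 fold change −0.40 ± 0.53). Its sign was positive without wild-type library 1 (0.51) and without cKO library 2 (0.17).

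None of the 4 tested flanking genes of Cbfa2t3 was called with all 4 libraries. Of 6 flanking protein-coding genes, 3 on each side, 4 passed the filter. By edgeR 0 were called at adjusted p below 0.05 (2 at an unadjusted p below 0.05). DESeq2 called 0 and gave no adjusted p for 1. Since 6.42% of all tested genes were called, 0 of 4 does not show that Cbfa2t3 stands alone. Pabpn1l, a poly(A)-binding protein gene whose window overlaps that of Cbfa2t3, had 4.22 and 2.72 CPM in wild type and 3.93 and 2.02 in cKO (log2 fold change −0.24 ± 0.62). By reference positions Cbfa2t3 and Trappc2l share 61.7% of the Pabpn1l window, so its value is uncertain. Acsf3, a mitochondrial acyl-CoA synthetase gene 76.1 kb away on the other side, had a log2 fold change of 0.72 ± 0.31 (adjusted p = 0.155). That change was 1.33 without wild-type library 1 and 0.35 without wild-type library 2. Cdh15, a cadherin gene of muscle, had much of the mark, with 375 and 277 CPM in wild type and 374 and 377 in cKO. Its log2 fold change was 0.20 ± 0.09 (adjusted p = 0.226). That change was 0.45 without wild-type library 1 and 0.0092 without wild-type library 2. Ankrd11, a chromatin regulator gene, had −0.38 ± 0.27 (adjusted p = 0.504). Galns and Trappc2l held at most 17 counts in any library and were not tested. Other windows overlap 27.2% and 82.2% of theirs.

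**Figure D4:**
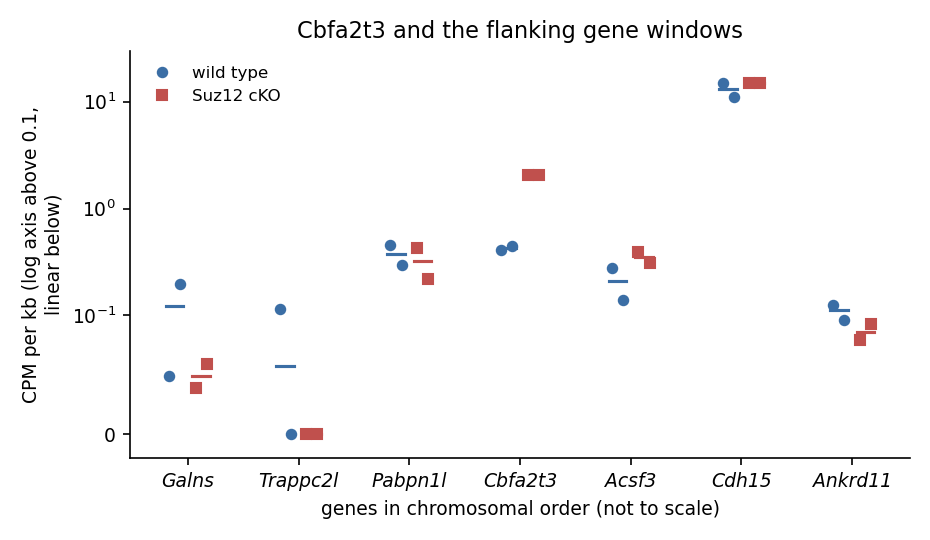
CPM per kb (log axis above 0.1, linear below) of Cbfa2t3 and 3 flanking protein-coding genes on each side, in chromosomal order, with 1 point per library and bars at the mean of 2. Cbfa2t3 separates the genotypes widely, while Cdh15 is high in both and the other windows are low in both.

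The 5 tested genes whose 4-library profile lay nearest to that of Cbfa2t3, by Euclidean distance in log2 of CPM per kb plus 0.1, were Fzd1, Sik1, Areg, Endod1 and Hes2. Fzd1, a Wnt receptor gene, was nearest (distance 0.233), with 0.443 and 0.480 CPM per kb in the wild type against 1.81 and 1.95 in cKO. Sik1 encodes a salt-inducible kinase, Areg the growth factor amphiregulin and Hes2 a bHLH repressor. The distances of these 5 genes ran from 0.233 to 0.525, and they are picked for likeness, so their differences are not tested. For Runx3 the nearest 3 were Hoxc10, Tbx2 and Cpa5, at 0.107 to 0.110. Hoxc10 and Tbx2 are developmental transcription factor genes, and other windows overlap 41.0% and 37.7% of theirs.

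Of 23 listed partners of the ETO proteins 18 were tested, of which 2 gained, 2 lost and 14 were not called, beside 4.46% gained and 1.96% lost among all tested genes. Their median log2 fold change was 0.02. Tcf4, an E protein gene, rose from 128 and 142 CPM in wild type to 330 and 351 in cKO, a log2 fold change of 1.34 ± 0.10 (adjusted p = 1.96e-27). Zbtb16, which encodes the repressor PLZF, rose from 613 and 557 to 830 and 861 CPM (0.53 ± 0.08, adjusted p = 1.31e-07). Both were called in all 12 alternatives. Tcf12, another E protein gene, fell from 24.2 and 25.4 to 13.9 and 9.82 CPM (−1.06 ± 0.27, adjusted p = 0.00316). Atxn1, which encodes ataxin-1, fell from 40.6 and 43.0 to 29.9 and 23.4 CPM (−0.65 ± 0.20, adjusted p = 0.0215). In all 4 genes the genotypes did not overlap.

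Both losses lay at genes with a low level per kb, at 0.0905 and 0.0993 CPM per kb in wild type. These are means over long windows of 273568 and 421237 bp. The Tcf12 call was lost when cKO library 2 was left out (adjusted p = 0.167), and the Atxn1 call without wild-type library 1, wild-type library 2 or cKO library 2 (adjusted p = 0.0743, 0.149 and 0.452). For Tcf12 and Atxn1 the adjusted p values were 0.0874 and 0.379 with housekeeping scaling, and 0.105 and 0.251 by DESeq2. The highest levels in the list were at Tal1 and Gata2, the blood regulators that ETO2 works with, at 19.8 and 18.7 CPM per kb in the wild type, and 22.2 and 22.6 in the knockout. Tal1 had a log2 fold change of 0.16 ± 0.09 (adjusted p = 0.345) and Gata2 0.27 ± 0.10 (adjusted p = 0.0618). Without wild-type library 1 these were 0.37 and 0.34, and without wild-type library 2 they were 0.0023 and 0.23.

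Cofactors of the Runx proteins were mostly low in the mark. Of 16 listed genes 14 were tested, 2 gained and 0 lost, beside the same 4.46% and 1.96% of all tested genes. Their median log2 fold change was −0.19, and their median wild-type level was 0.118 CPM per kb. Tle3, a Groucho corepressor gene, rose from 14.5 ± 0.650 to 27.3 ± 0.576 CPM (0.91 ± 0.25, adjusted p = 0.00894). Cebpa, the myeloid transcription factor gene, rose from 4 and 4 counts to 22 and 23, or from 1.67 ± 0.196 to 6.65 ± 0.00674 CPM (1.97 ± 0.60, adjusted p = 0.0243). Tle3 was not called without wild-type library 2 (adjusted p = 0.0732) or cKO library 2 (0.0850), nor by DESeq2 (0.157). Cebpa lost its call without each of the 4 libraries (adjusted p = 0.111 to 0.324). Smad3 and Ets1, the most marked cofactor genes, had 3.25 and 2.40 CPM per kb in wild type and log2 fold changes of 0.07 ± 0.09 and −0.01 ± 0.11 (adjusted p = 0.734 and 0.966).

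Of the Runx target genes in blood and bone, 1 was called. Of 16 targets in blood 13 were tested, and the only one called was Cebpa, which the cofactor list also holds, beside 6.42% of all tested genes called. The median log2 fold change was 0.10. Csf2, the GM-CSF gene, and Mpo, the myeloperoxidase gene, averaged 52.8 and 86.5 CPM in wild type and 53.1 and 87.4 in cKO, with overlapping libraries for both. Csf1r, the macrophage growth factor receptor gene and a Runx1 target, had 10.7 and 3.62 CPM in wild type and 3.63 and 4.33 in cKO, with overlapping genotypes. Of 9 Runx2 targets in bone 6 were tested. By edgeR 0 were called (1 at an unadjusted p below 0.05), and by DESeq2 0. The log2 fold change of Ihh was 0.19 with all 4 libraries. It was 0.36 without wild-type library 1 and 0.066 without wild-type library 2. The tested bone targets mostly stood high, with a median of 5.74 (wild type) and 6.54 (cKO) CPM per kb. In wild type 5 of the 6 lay above the median of all tested genes, and Bglap, at 0.650, lay below it. The untested Spp1, Mmp13 and Col10a1 had 0.140, 0.153 and 0 CPM per kb in wild type. Other windows overlap 100% of the Col10a1 window. Ihh, a Hedgehog ligand gene of cartilage, had 15.5 and 17.8 CPM per kb, and Vegfa 9.85 and 10.8 (adjusted p = 0.315 and 0.538).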

How the data were processed

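H3K27me3 was profiled in 4 Cut&Tag libraries, 2 wild type and 2 Suz12 cKO, each from 100000 cells with 0.5 µg of antibody and paired 36 bp reads, per the labels. The authors deposited raw counts for 27095 Entrez gene windows with each window length in bp, made with featureCounts on mm10 per the submitters' processing notes; the aligner and duplicate handling were not given in the sources used here. For 11525 windows the length equals the GRCm38.p6 gene span plus 3 kb on each side. Symbols were found for 25204 IDs (93.0%).

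CPM used TMM factors. Genotypes were compared with edgeR 4.0.16 in R 4.3.3 (filterByExpr, glmQLFit, glmQLFTest), adjusted over 16752 genes by Benjamini-Hochberg, and tested on simulated data. The SE is the fold change divided by the square root of F. Overlaps used reference positions. DESeq2 1.42.0, other scalings and filters, each library left out and a replicate block were alternatives. Replicate numbers came from titles, and replicates are biological per the labels. Members and lists were chosen with earlier results of these data known. Named were all members, called list genes, the 2 most marked of each list, the flanks of Cbfa2t3 and the nearest profiles of Cbfa2t3 and Runx3; Csf1r was named after its values were seen.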

Additional observations from a re-analysis of the deposited data

How the results depend on the processing

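Of the 7 members 1, Cbfa2t3, was called under each scaling, filter and test with all 4 libraries. Under a mean of at least 50 counts only 5 members were tested, and DESeq2 gave no adjusted p for 2 of the 7. With a library left out, the log2 fold change ran from 2.21 to 2.34 for Cbfa2t3 and from 0.11 to 0.35 for Runx3. Over all genes 1076 were called (69.4% gained). The gained share was 56.4% when only library totals were used, 48.8% under upper-quartile scaling and 93.6% under housekeeping scaling. Housekeeping scaling moved the median log2 fold change of all genes from −0.01 to 0.23. It rests on few counts, since 10 of its 30 genes passed the filter. Hprt and Pgk1, both on chromosome X, held the most, with 121 and 75 counts in wild-type library 1. DESeq2's Wald test called 377 genes, and leaving out a library gave 427 (cKO library 2) or 589 (cKO library 1) to 956. With a library left out, called counts were 0 to 1 for Runx cofactors, 2 to 7 for ETO partners (7 without wild-type library 1), 0 to 1 for blood targets and 0 to 1 for bone targets. DESeq2 called 0 cofactors, 2 ETO partners and 0 blood targets, with no adjusted p for 7, 6 and 7 of them, Cebpa included. Housekeeping scaling left 2 ETO partners called. A mean of at least 50 counts left 1 of 4 cofactors and 0 of 5 blood targets called. Some signs turned. In log2 fold change, using library totals only, upper-quartile scaling and a mean of at least 50 counts gave −0.0311, −0.0638 and −0.0317 for Runx2, −0.0476, −0.0798 and −0.0481 for Csf2, and −0.0359, −0.0679 and −0.0364 for Mpo. Smad3 was at −0.0096 under upper-quartile scaling, Runx1t1 at 0.0453 and Ets1 at 0.23 under housekeeping scaling, and Ets1 at 0.0047 with no filter. With a library left out the ranges were −0.0916 to 0.132 for Runx2, −1.31 to 0.51 for Cbfb, −1.45 to 0.88 for Cbfa2t2, −0.0418 to 0.0215 for Ets1, −0.0598 to 0.0761 for Csf2, −0.0096 to 0.0593 for Mpo and −0.774 to 0.166 for Pabpn1l. The causes were not tested. Whether libraries with the same replicate number belong together is not known. The replicate differences of the 2 genotypes correlated at 0.00844 across genes. This cannot exclude a pairing, because many genes have few counts. With the replicate block, 1039 genes, 1 member, 2 cofactors, 4 ETO partners, 1 blood target and 0 bone targets were called, and Cbfa2t2 was at −0.0063. Other scalings multiplied member levels by 0.920 to 1.10, and dividing by unshared window length by up to 1.16. Depth limits the values of Cbfb, Cbfa2t2 and Cebpa, which rest on 4 to 58 counts per library.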

Other observations

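Around the other 6 members, 26 flanking protein-coding genes passed the filter and 2 of them gained H3K27me3 in cKO, beside 4.46% of all tested genes, named here after their values were seen. Cbr3, a carbonyl reductase gene 857 kb from Runx1, had 4 and 3 counts in wild type and 25 and 25 in cKO (log2 fold change 2.31 ± 0.60, edgeR adjusted p = 0.00511). Clic6, a chloride channel family gene and the nearest flank of Runx1, had 0.12 ± 0.19 (adjusted p = 0.799). Bpifb9a, of a family of secreted lipid-binding proteins, lies 165 kb from Cbfa2t2 and had 0.75 ± 0.25 (adjusted p = 0.0396), in a window that lies wholly within that of Cdk5rap1 by reference positions, so its value is uncertain. Clic5, the nearest flank of Runx2 on the side away from Supt3, and Clic4, the nearest downstream flank of Runx3, belong to the same channel family as Clic6. Clic5 had 2.59 and 2.48 CPM per kb in wild type and cKO, and Clic4 0.116 and 0.0750 (adjusted p = 0.781 and 0.511). The Clic genes were named after their values were seen. In wild type Clic5 stood highest of the 3 and Clic4 lowest, and a relation to the levels of the Runx genes was not tested. Clic5 lies 216 kb from Runx2, and its deposited window of 97597 bp is shorter than the reference gene of 145408 bp.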
